A study of Mus musculus with 2 samples.

Results

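The 9 genes described here are Nrxn2 and Nrxn3 (neurexins), Nlgn1, Nlgn2 and Nlgn3 (neuroligins), and Lrrtm1, Lrrtm2, Lrrtm3 and Lrrtm4 (leucine-rich repeat transmembrane proteins). They were taken by symbol from the gene and transcript tables of each library, and are 9 of the 55536 annotated genes listed there, with 65 annotated transcripts between them. The libraries are total RNA-seq of the hippocampus of male mice aged 8 to 10 months from a cross labelled 5xFAD/CAST, made from 300 ng of RNA each with ribosomal RNA removed, strand information kept and ERCC spike-in RNA added. 5xFAD mice carry transgenes with familial Alzheimer disease mutations, human APP among them, driven by the Thy1 promoter of neurons, and CAST is a wild-derived strain whose genome differs from the mm10 reference. There are 2 libraries, labelled as biological replicates 1 and 2 of this 1 group, both under the same donor identifier, so no condition, genotype or age could be compared, and the SDs below measure only the spread between these libraries, which may be technical. Expected counts (reads assigned to genes by the authors' quantification) totalled 26128897 in replicate 1 and 28689423 in replicate 2.

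Neurexins are presynaptic membrane proteins, and neuroligins and Lrrtm proteins are postsynaptic ones that bind them across the synaptic cleft. Neurexin genes have separate promoters: one gives long transcripts (alpha-neurexins, with a large extracellular part of laminin-type domains), another gives short transcripts (beta-neurexins, with a start sequence of their own and the last of these domains). Alternative exons at fixed sites of neurexins (splice site 4 is the best studied) and neuroligins (sites A and B) change which partners bind: Lrrtm1 and Lrrtm2 bind neurexins that lack the site 4 insert, cerebellins those that carry it.

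The alternative exons and start exons on which the transcript results below turn are printed here, 5′ to 3′ in the sense of the gene, from the GENCODE M21 transcripts (mm10, GRCm38). They were chosen after the transcript values had been seen. The site 4 insert was 90 bases in both neurexin genes, and that of Nrxn3 is shown in lower case.
Nrxn3 splice site 4, chr12:90199147-90199236, plus strand: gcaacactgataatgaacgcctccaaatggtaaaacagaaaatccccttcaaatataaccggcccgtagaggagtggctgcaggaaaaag

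The first coding exon of the leading short transcript of each neurexin gene is shown because long transcripts lack it. Capitals mark bases identical in the alignment of both genes, 141 of 259 aligned positions (54.4%). The exon of Nrxn2 had a G+C content of 77.9%, that of Nrxn3 57.7%.
Nrxn2 short first coding exon, chr19:6498279-6498531, plus strand: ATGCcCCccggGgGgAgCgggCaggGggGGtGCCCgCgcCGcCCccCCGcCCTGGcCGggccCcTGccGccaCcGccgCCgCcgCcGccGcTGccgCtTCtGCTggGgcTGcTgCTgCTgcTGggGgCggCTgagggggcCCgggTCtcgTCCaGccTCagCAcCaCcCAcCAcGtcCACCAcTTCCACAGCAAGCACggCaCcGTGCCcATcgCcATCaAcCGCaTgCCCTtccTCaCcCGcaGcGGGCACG
Nrxn3 short first coding exon, chr12:89813400-89813640, plus strand: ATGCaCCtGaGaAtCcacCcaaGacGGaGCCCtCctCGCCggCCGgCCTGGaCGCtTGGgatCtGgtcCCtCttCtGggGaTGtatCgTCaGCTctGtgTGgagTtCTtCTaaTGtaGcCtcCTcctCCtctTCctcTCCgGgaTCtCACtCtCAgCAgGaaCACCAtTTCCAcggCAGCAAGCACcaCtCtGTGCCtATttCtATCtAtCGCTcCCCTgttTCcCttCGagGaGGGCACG

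In the neuroligins the site A inserts were 60 bases in Nlgn1, 51 in Nlgn2 and 60 each for both inserts of Nlgn3. Capitals in Nlgn1 and in the second insert of Nlgn3 mark the 43 of 60 bases (71.7%) shared by that pair, and capitals in Nlgn2 mark its 32 bases shared with Nlgn1. The first insert of Nlgn3 (in lower case) matched the second at 28 of 65 aligned positions. The 27 bases of Nlgn1 site B extend an exon at its start.
Nlgn1 splice site A, chr3:25920178-25920237, minus strand: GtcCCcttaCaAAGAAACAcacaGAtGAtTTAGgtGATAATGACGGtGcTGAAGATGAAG
Nlgn3 second insert, chrX:101307075-101307134, plus strand: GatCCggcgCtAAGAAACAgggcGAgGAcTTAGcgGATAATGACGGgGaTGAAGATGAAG
Nlgn2 splice site A, chr11:69830563-69830613, minus strand: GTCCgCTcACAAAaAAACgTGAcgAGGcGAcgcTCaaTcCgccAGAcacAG
Nlgn3 first insert, chrX:101303072-101303131, plus strand: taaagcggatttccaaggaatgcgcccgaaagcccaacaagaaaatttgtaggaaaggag
Nlgn1 splice site B, chr3:25439865-25439891, minus strand: gtaaccgttggagcaattcaaccaaag

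All 9 genes were expressed, and their levels spanned 15.9-fold, from Nrxn2 at 186 ± 14.9 TPM (SD, n = 2) to Lrrtm3 at 11.7 ± 3.64. TPM is a level per transcript length, so it allows for length between genes, but it depends on which annotated transcripts receive the reads. As families, the neurexins summed to 264 and 289 TPM in replicates 1 and 2, the neuroligins to 196.5 and 208 and the Lrrtm genes to 93.8 and 96.8. On protein-coding transcripts alone, chosen after seeing the data, the neurexins (mean 169 TPM) were instead below the neuroligins (mean 182). The order of the 9 genes was the same in both libraries: Nrxn2, Nrxn3, Nlgn2, Nlgn3, Nlgn1, Lrrtm1, Lrrtm4, Lrrtm2, Lrrtm3. Of the 8 neighbouring pairs in that order, Nrxn3 and Nlgn2 had overlapping ranges, and their means differed by 3.77 TPM, within their combined SD of 4.31. The other pairs did not overlap, the nearest of them, Lrrtm2 and Lrrtm3, by 4.08 TPM against a combined SD of 3.64. In the alignment-free tables the ranges of that pair overlapped and Lrrtm3 was not the lowest on average, with 17.8 and 13.9 TPM against 14.2 and 15.5 for Lrrtm2. Lrrtm1 (30.7 and 37.1) and Lrrtm4 (24.0 and 31.9) also overlapped there. On protein-coding transcripts alone Lrrtm1 (30.1 and 31.4) overlapped both Lrrtm4 (27.2 and 30.5) and Nlgn1 (31.1 and 35.0).

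**Figure D1:**
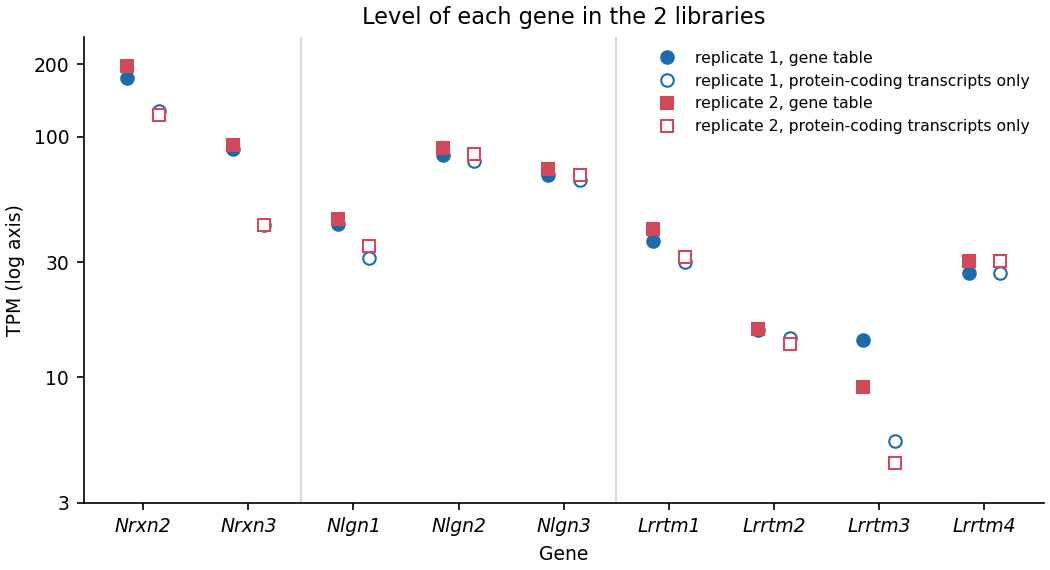
Level of each gene in TPM on a log axis. Filled marks are the gene table and open marks the sum of the gene's protein-coding transcripts, with circles for replicate 1 and squares for replicate 2. Nrxn2 was highest on both scales, and Nrxn3 fell from 90.5 to 42.8 TPM when the mean was taken over protein-coding transcripts alone.

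In 8 of the 9 genes part of the TPM lay in transcripts that the annotation does not class as protein-coding, and the share differed between members. Nrxn3 (52.7 ± 0.966%) and Lrrtm3 (56.9 ± 6.98%) held most of their TPM in such transcripts, Nrxn2 held 32.1 ± 7.28%, Nlgn1 25.6 ± 3.31%, Lrrtm1 20.95 ± 4.18% and Lrrtm2 10.3 ± 4.40%. Nlgn2 (5.70 ± 0.512%) and Nlgn3 (5.34 ± 0.579%) held little there, and the 8 transcripts of Lrrtm4 are all classed as protein-coding. Many of these models are short, so that few reads give a high TPM: Nrxn3-211, a 525-base processed transcript, held 15.7% and 18.1% of its gene's TPM with 107.9 and 137 expected counts. Other models of Nrxn3 outside the protein-coding class were the retained-intron Nrxn3-204 (9.63 ± 1.29% of the gene), the nonsense-mediated decay transcripts Nrxn3-208 (7.61 ± 1.56%) and Nrxn3-213 (8.34% in both libraries), and the processed transcripts Nrxn3-207 (4.51 ± 0.579%) and Nrxn3-212 (1.65 ± 0.202%). In Nrxn2 the processed transcripts Nrxn2-211 (7.49 ± 0.528%) and Nrxn2-217 (3.19 ± 0.843%) changed place in the alignment-free tables, at means of 0.523% and 8.11%. By expected counts the share outside the protein-coding class was 31.8 ± 1.68% for Nrxn3 and 8.35 ± 1.77% for Nrxn2. In Nrxn3 the nonsense-mediated decay transcripts, which have annotated coding sequences of 4173 and 3027 bases, made up 21.6 ± 2.09% of the counts. On protein-coding transcripts alone the order changed at 1 place: Nrxn3, at 42.7 and 43.0 TPM, fell below Nlgn2 (79.0 and 84.6) and Nlgn3 (65.8 and 69.2) in both libraries.

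**Figure D2:**
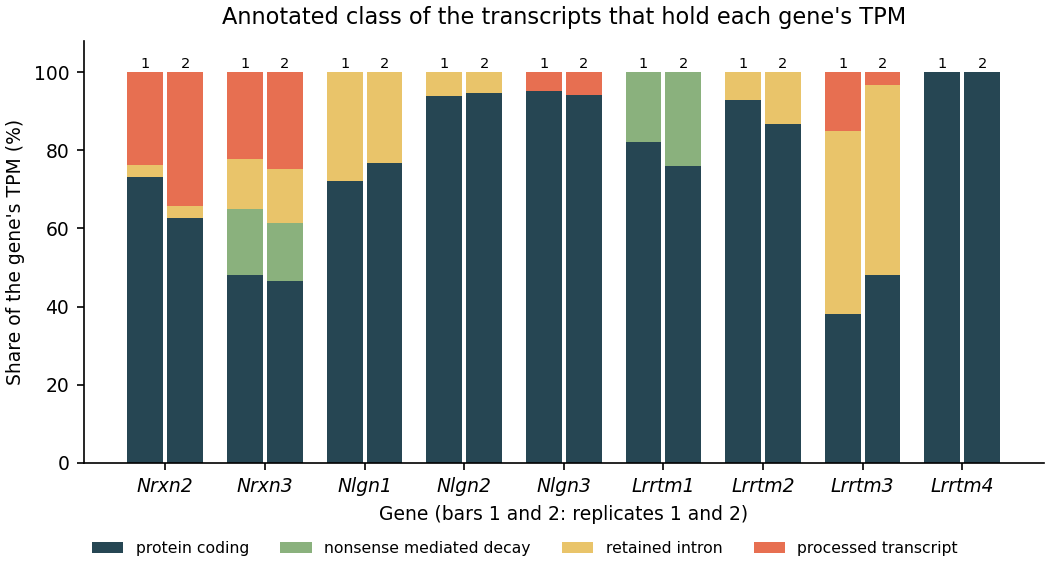
Share of each gene's TPM (percent) held by protein-coding, nonsense-mediated decay, retained-intron and processed transcripts, as the annotation classes them; the paired bars are replicates 1 and 2. Nrxn3 and Lrrtm3 had less than 50% protein-coding TPM in both libraries, and Lrrtm4 had 100%.

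Nrxn2 (ENSMUSG00000033768.17, chr19:6418731-6544169, plus strand) measured 175 TPM in replicate 1 and 197 in replicate 2, from 9849 and 10523 expected counts. That placed it above 97.4% and 97.6% of the protein-coding genes with at least 1 TPM. Nrxn3 (ENSMUSG00000066392.11, chr12:88722876-90334935, plus strand), a gene that spans 1612 kb, measured 89.0 and 92.1 TPM from 7366 and 8000 counts. Nrxn2 was the higher in both libraries, 2.05-fold on the mean of the log2 ratios (1.04 ± 0.08, SD, n = 2). The higher TPM of Nrxn2 in replicate 2 lay in short non-coding models: the 576-base processed transcript Nrxn2-213 had 23.6 and 41.1 TPM in replicates 1 and 2, while the protein-coding transcripts of the gene summed to 128 and 123.

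The neurexin genes differed in their short transcripts by more than in their long ones. Protein-coding transcripts were classed as long where their coding sequence reached 3000 bases, which gave 6 long (4509 to 5130 coding bases) and 3 short models (648 to 1980) for Nrxn2, and 3 long (3300 to 4713) and 2 short (1290 to 1701) for Nrxn3. Long transcripts of Nrxn2 summed to 40.4 and 37.2 TPM in replicates 1 and 2, and those of Nrxn3 to 32.4 and 36.02. The ratio of the 2 genes was 1.25 and 1.03 for long transcripts, a log2 ratio of 0.18 ± 0.19 that was within the spread between libraries. In the alignment-free tables it was 0.26 ± 0.23, a little above that spread, and Nrxn2 was the higher in both libraries of both tables. Short transcripts of Nrxn2 summed to 87.8 and 86.1 TPM, those of Nrxn3 to 10.3 and 6.94. In that class Nrxn2 was 8.50-fold and 12.4-fold the higher, a log2 ratio of 3.36 ± 0.39 (SD, n = 2).

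As a share of protein-coding TPM, long transcripts made up 31.5% and 30.2% of Nrxn2 (30.9 ± 0.950%) and 75.8% and 83.8% of Nrxn3 (79.8 ± 5.66%). The gap between the genes, 49.0 ± 6.61 percentage points, was larger than the spread between libraries and was 47.5 ± 7.90 points in the alignment-free tables. These shares depend on how a long transcript is defined. Nrxn2-202, the short transcript that led the gene, is itself 3503 bases long because of its untranslated ends, so a rule on transcript length in place of coding length put the long share of Nrxn2 at 95.4%, above the 82.0% of Nrxn3 by that rule. Counted in reads in place of TPM, the long share was 43.9% for Nrxn2 and 91.6% for Nrxn3, since a long transcript yields more reads per molecule.

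**Figure D3:**
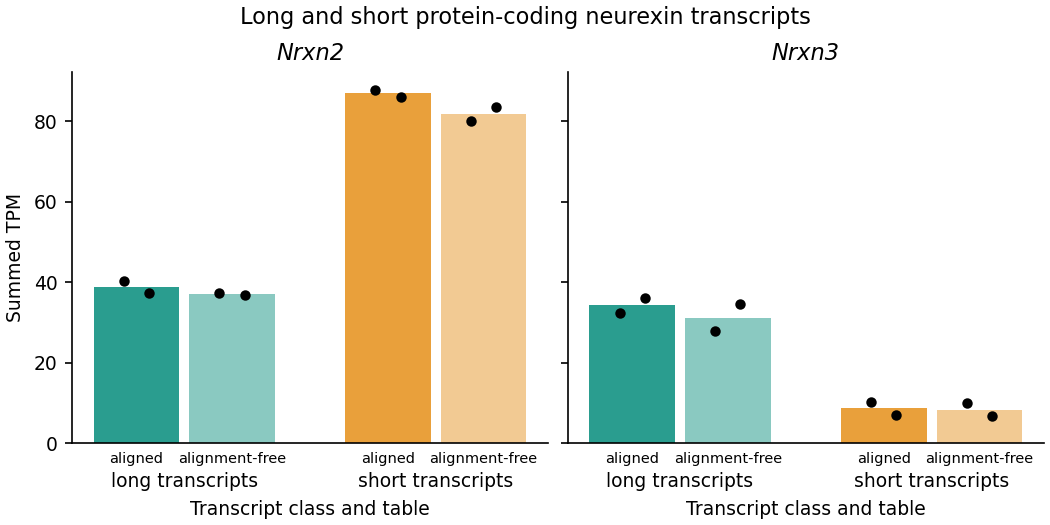
Summed TPM of long and short protein-coding transcripts of Nrxn2 and Nrxn3. Bars are means of the 2 libraries and dots the libraries (replicate 1 left), with the alignment-based tables in full colour and the alignment-free tables in pale colour; long transcripts lay between 27.9 and 40.4 TPM in both genes, while short ones lay above 80 TPM in Nrxn2 and below 11 TPM in Nrxn3.

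Few transcripts carried each class. Nrxn2-202, a short form whose first coding exon is printed above, held 79.7 and 82.0 TPM, 43.6 ± 2.63% of the gene. Among long forms of Nrxn2, Nrxn2-204 held 23.1 and 23.4 TPM and Nrxn2-201 held 16.4 and 13.9, and the other 4 long models held at most 0.93 TPM in either library of the alignment-based tables. In Nrxn3 the long form Nrxn3-205 held 29.5 and 31.9 TPM (33.9 ± 1.05% of the gene) and the short form Nrxn3-203 held 8.81 and 6.57. The long form Nrxn3-201 held 2.91 and 4.13 TPM. Of the 3503 bases of Nrxn2-202, 704 (20.1%) lie outside every long model of the gene, and of the 2699 bases of Nrxn3-203, 1167 (43.2%) do; reads on the remaining bases were divided between the classes by the authors' model. One short model of Nrxn2, Nrxn2-209 (7.86 and 3.83 TPM), is tagged as incomplete and lies wholly within long models, and without it the long share of Nrxn2 was 32.4%.

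Splice site 4 was mostly included in both neurexins. Among protein-coding Nrxn2 transcripts that span the site, those with the 90-base insert held 80.7% of the TPM in replicate 1 and 80.2% in replicate 2. The corresponding values of Nrxn3 were 79.4% and 84.7%, so the ranges of the genes overlapped in these tables. They did not in the alignment-free ones, where Nrxn3 (83.5% and 87.6%) was above Nrxn2 (78.4% and 79.7%). Inclusion did not follow one class of transcript in Nrxn2: its leading short form Nrxn2-202 and the long form Nrxn2-201 carry the insert, and the long form Nrxn2-204 skips it. In Nrxn3 the models that skip it were the short form Nrxn3-203 and, among transcripts of the nonsense-mediated decay class, Nrxn3-213. No long protein-coding model of Nrxn3 skips the insert. Among coding models its inclusion is thus the share not held by Nrxn3-203, and cannot be told apart from the level of that short form. With nonsense-mediated decay models included, Nrxn3 was at 72.0% and 74.8% (73.4 ± 2.03%), below Nrxn2, whose values did not change. Which gene included the insert more thus depended on the table and the models counted.

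**Figure D4:**
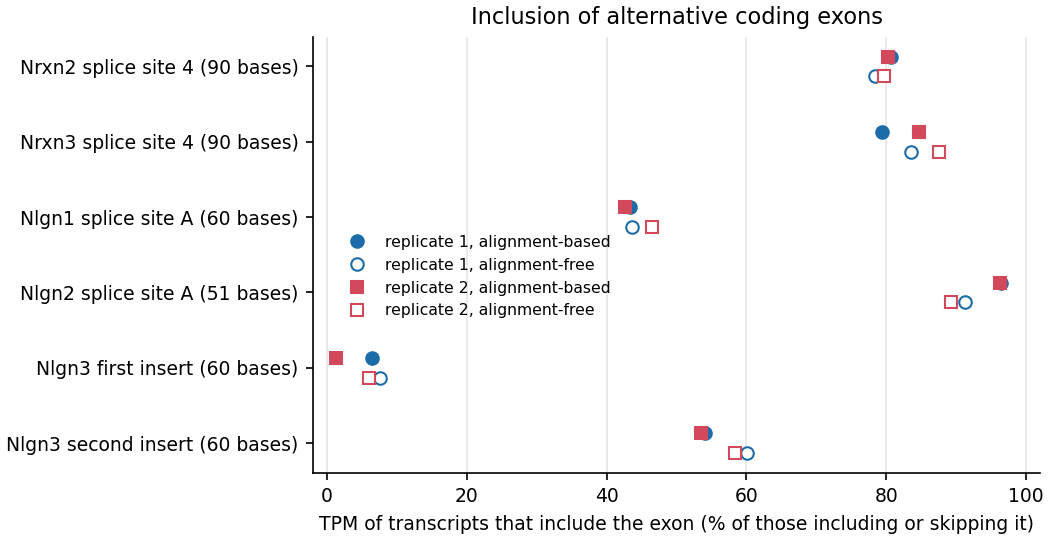
Inclusion of the 6 alternative coding exons, as the percentage of TPM in transcripts that include the exon among protein-coding transcripts that include or skip it. Filled marks are alignment-based tables, open marks alignment-free ones, circles replicate 1 and squares replicate 2; site 4 lay between 78.4% and 87.6% in both neurexins, while the neuroligin exons ranged from 1.30% to 96.4%.

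Neuroligins are postsynaptic adhesion proteins with an inactive cholinesterase-like domain. Nlgn2, found mainly at inhibitory synapses, was the highest at 84.1 and 89.4 TPM from 7474 and 8545 counts (ENSMUSG00000051790.15, chr11:69823122-69837784, minus strand). Nlgn3, found at excitatory and inhibitory synapses, measured 69.2 and 73.4 TPM (ENSMUSG00000031302.16, chrX:101299168-101325963, plus strand). Nlgn1, found mainly at excitatory synapses, measured 43.2 and 45.6 TPM (ENSMUSG00000063887.13, chr3:25426215-26332460, minus strand). None of these ranges overlapped.

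The proportions of the 3 neuroligins were nearly the same in both libraries: Nlgn2 made up 42.8 ± 0.048% of their summed TPM, Nlgn3 35.2 ± 0.016% and Nlgn1 21.9 ± 0.064%. Nlgn2 was 1.95-fold above Nlgn1, a log2 ratio of 0.97 ± 0.01 (n = 2). Nlgn1 spans 906 kb, Nlgn3 26.8 kb and Nlgn2 14.7 kb, the inverse of the order of their levels.

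Site A differed between the neuroligins. In Nlgn1 the transcripts with the 60-base insert, Nlgn1-201 and Nlgn1-205, held 43.3% and 42.7% of the TPM of transcripts that include or skip it. In the alignment-free tables they held 43.6% and 46.6%. Nlgn1-201 and Nlgn1-205 also carry the 27-base site B sequence printed above. The leading transcript Nlgn1-203 (16.2 and 19.3 TPM) and Nlgn1-202 lack it, so that in the annotated models A and B go together and cannot be told apart. A retained-intron transcript, Nlgn1-204, held 12.1 and 10.6 TPM, 25.6 ± 3.31% of the gene. In Nlgn2 the 51-base insert was in 96.4% and 96.3%, and in 91.3% and 89.3% in the alignment-free tables. Nlgn2-202, which has the insert, held 74.8 ± 1.23% of the gene's TPM. Nlgn2-201, also with the insert, held 16.0 ± 0.806%, and the 355-base retained-intron model Nlgn2-204 held 5.70 ± 0.512% but was at 0 in the alignment-free tables.

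Of both inserts of Nlgn3, the second was the more included in each library. Transcripts with the second 60-base insert held 54.1% and 53.5%, whereas the first insert, present in Nlgn3-206 alone, was in 6.40% and 1.30%, values whose SD of 3.61 points nearly equals their mean of 3.85%. The alignment-free tables gave 6.78 ± 1.19% for the first insert and 59.3 ± 1.23% for the second. In both Nlgn2 and Nlgn3 the coding model that skips site A altogether is tagged as incomplete: Nlgn2-203 (784 bases) and Nlgn3-203 (1852 bases). Nlgn3-203 held 30.2 and 32.2 TPM, close to the 31.0 and 36.1 TPM of the leading full-length Nlgn3-201, but from 960 and 1093 expected counts against 4699 and 5852. The processed transcript Nlgn3-204 held 2.13 and 2.66 TPM.

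Lrrtm proteins are leucine-rich repeat proteins of excitatory postsynaptic sites. Lrrtm1 (ENSMUSG00000060780.2, chr6:77242689-77257791, plus strand) was the highest at 36.7 and 41.3 TPM. Lrrtm4 (ENSMUSG00000052581.13, chr6:80018877-80810143, plus strand), which also binds heparan sulfate proteoglycans, followed at 27.2 and 30.5. The ranges of Lrrtm1 and Lrrtm4 overlapped in the alignment-free tables and on protein-coding transcripts alone. Lrrtm2 (ENSMUSG00000071862.3, chr18:35209003-35215024, minus strand) measured 15.6 and 15.9, and Lrrtm3 (ENSMUSG00000042846.8, chr10:63928472-64090277, minus strand) 14.3 and 9.12. Lrrtm1 made up 40.9 ± 2.51% of the family's TPM and Lrrtm3 12.3 ± 4.09%.

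Lrrtm4 had its TPM divided between transcripts with different last coding exons. The 3 complete models that end by position 80025909 of chromosome 6, with 1554 to 1557 coding bases, held 12.2 and 11.4 TPM. The 3 that run on to a last exon ending at 80809323 or beyond, with up to 1773 coding bases, held 12.4 and 14.4. The far form was thus 53.1 ± 3.72% of the TPM of complete models, and 52.1 ± 1.75% in the alignment-free tables, a share that did not differ from an even split by more than the spread between libraries in the first and by little more in the second. Of the far form, Lrrtm4-208 led the gene with 30.9 ± 2.78% of its TPM and Lrrtm4-205 held 15.5 ± 3.82%. Of the near form, Lrrtm4-206 held 23.8 ± 0.361% and Lrrtm4-201 held 17.3 ± 5.57%. The incomplete models Lrrtm4-204 (6.38 ± 3.61%) and Lrrtm4-207 (6.17 ± 0.563%) belong to neither count.

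Lrrtm1 and Lrrtm2 each had a leading coding transcript. Lrrtm1-202 held 63.3 ± 0.802% of its gene's TPM, and Lrrtm1-201, of the nonsense-mediated decay class with the same 1566 coding bases, held 18.0% and 23.9%. The coding transcript Lrrtm1-203 held 18.2% and 13.4%. Lrrtm2-201 held 78.8 ± 1.54%, the shorter coding Lrrtm2-203 10.9 ± 2.87% and the retained-intron Lrrtm2-202 10.3 ± 4.40%. Lrrtm3 was the 1 member of 9 whose leading transcript was not the same in all 4 transcript tables: the retained-intron transcript Lrrtm3-204 led in 3 and the 545-base processed transcript Lrrtm3-202 in 1. Its sole coding transcript, Lrrtm3-201, held 5.44 and 4.38 TPM. The 469-base Lrrtm3-203 was at 0 in the alignment-based tables and held 13.6% of the gene on average in the alignment-free ones.

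Lrrtm1, Lrrtm2 and Lrrtm3 each lie on the opposite strand within an alpha-catenin gene, which encodes a protein that links cadherins to actin. Lrrtm1 (39.0 ± 3.27 TPM) and its host Ctnna2 (39.7 ± 0.679) were at like levels, with a log2 ratio of -0.03 ± 0.15. Lrrtm3 was 6.81-fold above its host Ctnna3 (1.96 and 1.43 TPM), a log2 ratio of 2.77 ± 0.13. Lrrtm2 was below Ctnna1 (30.6 and 22.2 TPM), with a log2 ratio of -0.73 ± 0.35. Annotated exons overlap by 95 bases for Lrrtm2 and Ctnna1 and by 0 for the other pairs; the library kit kept the strand, and whether the quantification used it is not given in the sources used here. Lrrtm4 lies within no annotated gene.

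Other genes of these complexes were set beside the members as lists chosen with earlier results known. Of 23 other neurexin ligands and receptors, 19 were at 1 TPM or more in both libraries, led by the calsyntenin Clstn1 (325 ± 10.3 TPM), the latrophilin Adgrl1 (127 ± 4.38) and Clstn3 (112 ± 1.43). The cytoplasmic partners were led by the scaffolds Dlg4 (324 ± 11.5), which binds neuroligins, and Shank1 (244 ± 13.5). Among the genes listed as regulators, Khdrbs3 (142 ± 3.26), an RNA-binding protein of the family known to act on neurexin site 4, Ptbp2 (61.3 ± 3.63), another splicing regulator, and Ndst1 (49.5 ± 0.255), an enzyme of heparan sulfate synthesis, were the highest. The other synaptic organisers were led by Ptprs (273 ± 19.96), Lrrc4b (129 ± 3.63) and Ptprd (86.0 ± 5.94). Nrxn2 thus lay below Clstn1, Dlg4, Shank1 and Ptprs and above the other genes named here.

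The libraries differed little in most of the 9 genes. Scaled expected counts of replicate 2 were set against those of replicate 1 for 16971 genes, with an exact conditional binomial test and Benjamini-Hochberg adjustment over all of them, a test that compares these 2 libraries by counting error alone. None of the 9 genes was more than 2-fold apart, where 2.01% of all tested genes were, and 3 of 9 passed the test at an adjusted p under 0.05, where 18.4% of all genes did. Their median absolute log2 ratio was 0.03, beside 0.12 over all genes tested. The 9 genes had at least 525 counts in each library, while the genes tested reached down to a mean of 20. The members and the background were thus not matched for depth. Lrrtm3 was lower in replicate 2, with 674 and 525 counts, a log2 ratio of -0.49 and an exact binomial adjusted p of 1.35e-07. Its absolute ratio exceeded that of 90.6% of genes. The retained-intron transcript Lrrtm3-204 had 282 and 200 of these counts, and the sole coding transcript Lrrtm3-201 had 375 and 322. The deposited credibility bounds of the TPM of Lrrtm3, 11.97 to 16.7 in replicate 1 and 8.31 to 11.8 in replicate 2 (level not stated), did not overlap. Lrrtm1 was higher in replicate 2 by a log2 ratio of 0.15 (exact binomial adjusted p = 0.0122) and Nlgn2 by 0.06 (exact binomial adjusted p = 0.0316). Nlgn2 was no longer past the threshold when scaled by library size alone (exact binomial adjusted p = 0.0647). In Lrrtm1 the nonsense-mediated decay transcript Lrrtm1-201 held 6.60 and 9.87 TPM in replicates 1 and 2. The protein-coding transcripts of that gene summed to 30.1 and 31.4 TPM. The other 6 members had log2 ratios between -0.03 and 0.06.

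Markers of some tissues and cell types moved between the same libraries by more than most members did. Markers of hippocampal subfields were present in both, among them Wfs1 (57.4 and 63.7 TPM) and Prox1 (25.9 and 31.2). Of the 4 on that list, 3 were higher in replicate 2 past the test (median log2 ratio 0.18). All 10 choroid plexus markers were lower in replicate 2 past the test (summed TPM 1215 and 188, median log2 ratio -2.71), as were all 8 striatum markers (211 and 78.8), and 5 of 7 excitatory neuron markers were higher (median 0.24). Lists of astrocytes (median -0.04), oligodendrocytes (-0.04) and microglia (-0.08) had small medians, but most of their markers were lower in replicate 2. These were all 6 microglia markers (3 past the test), 5 of 6 oligodendrocyte markers (2 past the test) and 4 of 6 astrocyte markers (2 past the test). The inhibitory neuron list had a median of 0.03 that hid opposed moves. Of its 7 markers, Pvalb (0.35) was higher past the test and Gad2 (-0.25) and Slc32a1 (-0.28) lower. The thalamus list had a median of -0.11 that also hid opposed moves. Of its 6 markers, Slc17a6 (-0.92) was lower past the test and Prkcd (0.24) higher. No marker of any list was at 0 in either library. The lower Lrrtm3 and the higher Lrrtm1 and Nlgn2 of replicate 2 went with these shifts, whose part in them was not tested, and in bulk tissue fewer cells of a type and less RNA per cell cannot be told apart.

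Among the listed partners, 7 of 21 tested ligands and receptors were higher and 4 lower in replicate 2, and 2 were more than 2-fold apart: Cbln1, a cerebellin that bridges neurexins to postsynaptic receptors (61 and 141 counts, log2 ratio 1.07), and Nxph4, a neurexophilin (82 and 26 counts, -1.77). Of the 19 cytoplasmic partners 6 were higher and 2 lower, of the 14 regulators 1 higher and 4 lower, and of the 28 other organisers 6 higher and 6 lower, where 9.21% of all genes tested were higher and 9.16% lower. Mmp9, a metalloproteinase that cleaves neuroligins, was the 1 regulator more than 2-fold apart, with 21 and 47 counts.

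**Figure D5:**
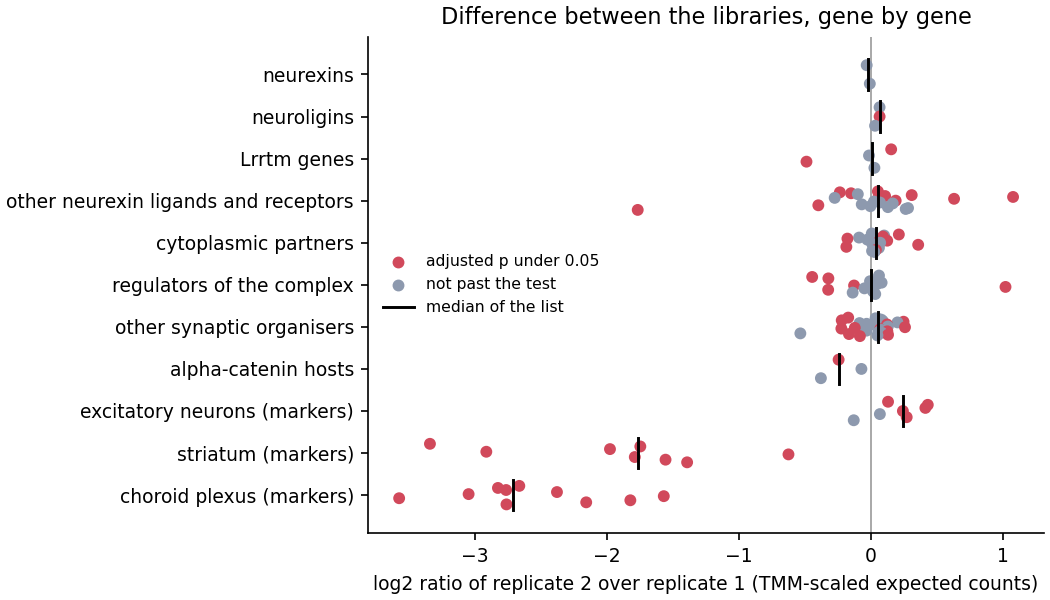
log2 ratio of replicate 2 over replicate 1 in scaled expected counts, 1 point per gene, by family and list, with points past the exact test in red and list medians as black lines. The 9 genes lay between -0.49 and 0.15, whereas the choroid plexus and striatum marker lists had medians of -2.71 and -1.77.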

How the data were processed

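Gene and transcript tables were deposited per library; per the file headers and the notes deposited with them they use mm10 and GENCODE M21. The authors deposited expected counts, TPM, FPKM, each transcript's percent of its gene, credibility bounds and a quartile variation fraction from reads aligned to the transcriptome, and estimated counts and TPM from a second, alignment-free quantification. The sources used here do not name the aligner or the quantifier. TPM was averaged over the 2 libraries (SD, n = 2). Library ratios used expected counts scaled by TMM (edgeR 4.0.16) with a prior count of 0.5, genes with a mean of at least 20, and an exact conditional binomial test (scipy 1.17.1) with Benjamini-Hochberg adjustment, and the procedure was tested on simulated data. Alternatives were DESeq2 1.42.0 size factors, library size, spike-in scaling, no filter, pseudocounts, alignment-free values and each library alone. One read was worth 0.0383 and 0.0349 CPM, and 3 reads set a floor of 0.115 and 0.105.

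Named were all 9 members, transcripts holding at least 5% of their gene's TPM in a library of either quantification (others where a class or exon rests on them), and the top 3 genes by TPM and any over 2-fold apart of each partner list; 1 gene and 1 sequence under these rules are not reported here. No genes of like pattern were sought, since 2 libraries of 1 group give none. The members and lists were chosen with earlier results of these data known. Whether CAST variants lowered mapping to mm10 was not tested. No protein sequences were used.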

Additional observations from a re-analysis of the deposited data

How the results depend on the processing

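The rank of Nrxn2, the order of the neuroligins and the higher long share of Nrxn3 than of Nrxn2 held in each library and in both quantifications; by transcript length the long share was instead lower in Nrxn3 (82.0%). On protein-coding transcripts alone, chosen after seeing the data, family sums were 169 TPM for neurexins, 182 for neuroligins and 78.6 for Lrrtm genes, and with alignment-free TPM the neuroligins summed to 178 and the Lrrtm genes to 92.6. The long share of Nrxn2 was 20.98% with all transcripts in the denominator, 95.4% by transcript length, 43.9% by expected counts and 32.4% without incomplete models (added after seeing the data). That of Nrxn3 was 37.8% with all transcripts, 91.6% by counts and 85.0% with nonsense-mediated decay transcripts included (also added after seeing the data). With either replicate left out, the sums ranged from 264 to 289, 196.5 to 208 and 93.8 to 96.8 TPM, and the long shares from 30.2% to 31.5% for Nrxn2 and from 75.8% to 83.8% for Nrxn3. Scaling by spike-ins moved the median log2 ratio of all genes by 0.27 and put 9 of 9 members past the test. By that scaling 10037 of the 16971 genes tested passed, 9597 of them higher in replicate 2. It gave positive log2 ratios for Nrxn2 (0.23), Nrxn3 (0.26) and Lrrtm2 (0.25). Relative to the shift of all genes these members stayed near 0. Lrrtm3 stayed lower in replicate 2, with a spike-in-scaled log2 ratio of -0.22 before the shift of all genes is allowed for. Ratios between the libraries cannot be formed with a library left out. No paired analysis was possible because both libraries belong to 1 group. The leading short transcripts share most of their bases with long ones, so the division of reads rests on the authors' model, and annotation limits it further: models missing from GENCODE M21 get no reads.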
